A study of Solanum lycopersicum with 21 samples.

Results

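In tomato (Solanum lycopersicum), 2952 genomic regions carried a DAP-seq peak of the MC-TM3 complex and no peak of any of the 5 other complexes tested. Peaks of all 6 lists that overlapped by at least 1 bp were joined into 26850 regions, of which 11315 held an MC-TM3 peak, and the 2952 MC-TM3-only regions were chosen by the absence of an overlapping peak in the other lists. They therefore made up 26.1% of the regions with an MC-TM3 peak. The same share was 35.4% for MC-J, 8.21% for MC-J2, 48.8% for FUL2-TM3, 19.5% for FUL2-J and 5.55% for FUL2-J2, and 54.6% of all regions had a peak of 1 list only, so the MC-TM3 share lies inside the range of the 6 complexes. Each MC-TM3-only region holds exactly 1 peak, so that they are 25.8% (95% Wilson interval 25 to 26.6%) of the 11457 peaks of the MC-TM3 list, and the other 8505 peaks of that list are called shared.

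In DAP-seq, a transcription factor made in a cell-free system meets fragments of naked genomic DNA, and the fragments that come down with its tag are sequenced. Here, wheat germ extract made MC or FUL2, each with a FLAG tag, together with untagged J, J2 or TM3, and the pull-down with anti-FLAG beads therefore went through MC or FUL2 in every complex. The DNA was WT young leaf DNA of cultivar Moneyberg for all complexes and for the input control, which received extract without plasmid. Each of the complexes MC-TM3, MC-J, MC-J2, FUL2-TM3, FUL2-J and FUL2-J2 had 3 libraries and the input also had 3, 21 in all, but only 1 merged peak list per complex was used here. The name of each merged alignment refers to 2 source alignments, so whether all 3 libraries stand behind a list is not settled. As the lists are merged, no value below has a replicate error and none was tested between complexes.

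MC, TM3, FUL2, J and J2 are MADS-domain transcription factors, which bind CArG-boxes, short DNA elements with an A/T-rich core, as dimers or as tetramers that can hold a pair of such boxes. MC (MACROCALYX) and FUL2 belong to the AP1/FUL-like group. In tomato MC is known for its roles in inflorescence development, sepal size and the abscission zone of the pedicel, and TM3, a relative of Arabidopsis SOC1, promotes flowering. The proteins J and J2 are known from the jointless mutants, which lack the abscission zone of the pedicel. Genes and DNA motifs at the regions were not analysed here, since no sequence or annotation of the Moneyberg genome was used. The positions are those of the Moneyberg genome, counted from 1.

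The presence or absence of a peak is a matter of a threshold. A region without a peak in another list can still hold reads of that complex, and the reads of the other complexes at the MC-TM3-only regions were not analysed here. The MC-TM3 list reaches down to a −log10 q of 4.05. Strength is given as the authors' peak caller wrote it, as a −log10 q and as a fold enrichment over the local background, and as a percentile within the MC-TM3 list, in which 0 is the weakest and 100 the strongest peak. As the list of MC-TM3 peaks was part of the choice, the strength of its peaks is described and not tested. Intervals are 95% Wilson intervals for shares and 95% binomial intervals for medians, and cover counting error over peaks only.

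The MC-TM3-only peaks were of low to middle strength and almost absent from the top of the list. Their −log10 q ran between 4.08 and 54.3 with a median of 14.1, against a median of 17.6 and a maximum of 120 for the shared peaks. Their median percentile by −log10 q was 37.1 (37.1 to 39.5), against 56.4 (54.9 to 57.5) for the shared peaks. Both sets overlap over the whole range of the MC-TM3-only peaks, and the difference lies in how they fill it. Of the MC-TM3-only peaks, 1666 (56.4%) lay between the 10th and the 50th percentile, against 34.2% of the shared peaks. The strongest 25% of the list held 223 of them (7.55%) and the strongest 10% held 28 (0.949%), against 31.0% and 13.2% of the shared peaks.

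By their medians, the fold enrichment ordered the 2 sets the same way with a smaller distance. MC-TM3-only peaks had folds between 1.5 and 7.69 with a median of 4, against a median of 4.27 and a maximum of 13 for the shared peaks. The median percentile by fold was 42.3 (41.7 to 44.1) for the MC-TM3-only peaks and 54.1 (52.9 to 55.6) for the shared peaks. By fold, 320 of the MC-TM3-only peaks (10.8%) reached the strongest 25% of the list, against 29.9% of the shared peaks. The weakest 25% held like shares, 24.6% of the MC-TM3-only and 25% of the shared peaks. Away from the chromosome ends the median percentiles by fold were 43.7 and 62.1. Many peaks of the list have the same q, and 1442 MC-TM3-only peaks (48.8%) have a −log10 q that at least 50 MC-TM3 peaks share, and the largest tie holds 304 peaks at 15.4.

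The share of MC-TM3-only peaks was highest in the lower and middle part of the list and fell steeply over its upper part. When the list was cut into deciles by −log10 q, they made up 27.5% of the weakest decile, between 33.4% and 38.0% of the next 4 deciles, and then 30.0%, 24.3%, 18.1%, 9.70% and 2.44% of the stronger deciles. Ranked by fold, they were 15.2% of the weakest decile, 32.4% to 37.0% of the next 5, and 3.60% of the strongest. The low value in the weakest decile went with the chromosome ends. When only the placed peaks over 1 Mb from an end were counted, the share in the weakest decile was 46.1% by −log10 q and 38.0% by fold, and by −log10 q it fell to 2.46% in the strongest.

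**Figure D1:**
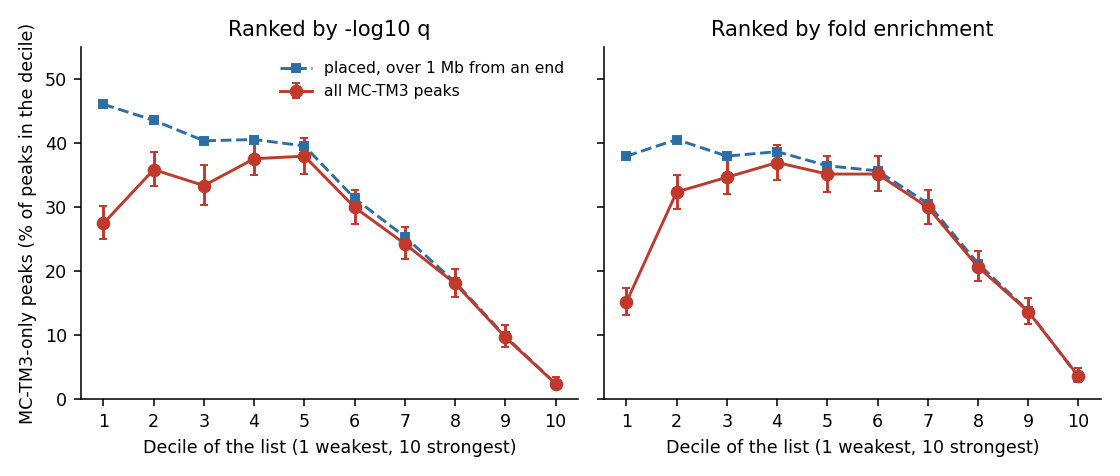
Share of MC-TM3-only peaks among MC-TM3 peaks in each decile of the list, ranked by −log10 q (left) or by fold enrichment (right); red points are all peaks with 95% Wilson intervals, blue squares are placed peaks over 1 Mb from a chromosome end. The share falls to 2.44% in the strongest decile by −log10 q and to 3.60% by fold.

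Among the placed MC-TM3 peaks away from the ends, strength followed the number of other lists with an overlapping peak. The median percentile by −log10 q of the placed peaks away from the ends was 38.2 for the MC-TM3-only peaks, and 44.7, 51.7, 60.6, 73.1 and 89.4 for peaks shared with 1, 2, 3, 4 and 5 lists. By −log10 q, the MC-TM3-only peaks were here the weak end of a series graded by the number of lists, which the rule itself uses. With the ends included, the median of the MC-TM3-only peaks was 37.1, above the 32.3 of the peaks shared with 1 list. By fold it was 42.3 against 28.4 with the ends included. Away from the ends it was 43.7 (42.3 to 44.9) against 47.0 (44.9 to 48.8) by fold. Of the 3007 peaks shared with 1 list, 1827 were shared with FUL2-TM3, the complex with the same untagged partner, and 1121 of these lay within 1 Mb of an end. Away from the ends FUL2-TM3 was the sole other list at 675 peaks, against 511 for FUL2-J, 241 for MC-J, 211 for FUL2-J2 and 194 for MC-J2. Leaving the FUL2-TM3 list out raised the number of MC-TM3-only regions to 4796.

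The single-list peaks of the other complexes were also of low to middle strength in their own lists. Their median percentile by −log10 q was 37.1 for MC-J-only, 33.8 for FUL2-TM3-only, 31.5 for FUL2-J-only, 28.8 for FUL2-J2-only and 26.9 for MC-J2-only peaks. The value of 37.1 for the MC-TM3-only peaks is equal to that for MC-J-only peaks. By fold the MC-TM3-only peaks had the highest median percentile of the 6 sets, at 42.3 against 31.5 to 36.9 for the others. A percentile depends on the other peaks of its list. The MC-TM3 list holds 1319 shared peaks at the ends, with a median percentile by fold of 9.57. With the ends left out and the ranks recomputed, the MC-TM3-only median by −log10 q was 33.3. This was not computed for the other lists.

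The strongest MC-TM3-only region lay on chromosome 9 between 27214031 and 27214461, with a −log10 q of 54.3 at a fold of 7.69. It ranked at percentile 98.7 of the list, and the nearest peak of another list, of MC-J, was 51.2 kb away. Its summit had 139 treatment reads, each worth 0.773 input reads, over a background of 13.1 input reads. The second, on chromosome 4 between 39143966 and 39144309, had a −log10 q of 45.0 at a fold of 6.71, and a FUL2-J peak lay 3.03 kb from it. The third, on chromosome 9 between 12398104 and 12398497, had a −log10 q of 41.0 at a fold of 5.97, with an MC-J peak at 16.3 kb. These 3 are the only MC-TM3-only regions in the strongest 5% of the list, where 570 shared peaks are found.

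The next 7 regions by −log10 q lay close together in strength, between 38.6 and 36.6. They were on chromosome 1 at 16483112 to 16483554 (fold 6.68), on chromosome 4 at 10527472 to 10527857 (fold 6.62), on chromosome 10 at 19669399 to 19669739 (fold 5.31) and on chromosome 1 at 37633060 to 37633464 (fold 6.37). The others were on chromosome 7 at 8076660 to 8077043 (fold 6.67), on chromosome 12 at 23524765 to 23525114 (fold 5.59) and on chromosome 10 at 20081451 to 20081951 (fold 6.62). The first of these has the third highest fold of all MC-TM3-only regions. All 10 lay at least 8.08 Mb from a chromosome end, and the nearest peak of another list was between 2.06 kb and 51.2 kb away.

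The 28 MC-TM3-only regions in the strongest 10% of the list were spread over 11 chromosomes, with at most 6 on any of them and 1 within 1 Mb of an end. None of the 28 had a peak of another list within 1 kb, and 9 had one within 10 kb. Their median width was 372 bp, and a median of 112 reads covered their summits. At the other end of the scale, the lowest −log10 q was 4.08, on chromosome 3 between 2833547 and 2833881, with a fold of 2.51 and 42 reads at the summit. It was followed by a region on chromosome 9 between 34539509 and 34539863 with a −log10 q of 4.12, and by a region on chromosome 3 between 26797674 and 26798095 with 4.17. These 3 stand directly at the threshold of the list.

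MC-TM3-only regions were narrower than the shared peaks. Their median width was 300 bp (299 to 302), with a range of 268 to 818 bp, against a median of 354 bp (352 to 357) and a maximum of 2027 bp for the shared peaks. Of the MC-TM3-only regions, 193 (6.54%) had the smallest width of any MC-TM3 peak, 268 bp, against 153 shared peaks (1.80%). Only 38 of them (1.29%) were wider than 500 bp, against 804 shared peaks (9.45%). Together they covered 928 kb, and the shared peaks covered 3251 kb. The widest region lay on chromosome 2 between 54636586 and 54637403, 34.7 kb from the end of the chromosome, with a modest −log10 q of 11.7. A wider peak more easily overlaps another by 1 bp, so width is not independent of the rule. How much of the difference in width comes from the rule was not tested.

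Over the upper part of the list, stronger peaks were wider in both sets. This did not hold at its lower end, where the weakest decile was wider than the next one. The medians of that next decile were 288 bp for the MC-TM3-only and 316 bp for the shared peaks. The difference in width between the sets was also found within deciles, which do not hold peaks of equal strength. The strongest decile spans −log10 q values of 32.1 to 120, and its MC-TM3-only peaks had a median of 34.7 and a maximum of 54.3. In each decile of the list by −log10 q, the MC-TM3-only peaks had a lower median width than the shared peaks. In the weakest decile it was 303 bp against 360 bp, in the fifth it was 293 bp against 317 bp, and in the strongest it was 372 bp against 421 bp. With the shared peaks limited to those over 1 Mb from an end, the gap in the weakest decile was smaller (303 bp against 316 bp) and that in the strongest stayed almost as it was (372 bp against 420 bp). The median was also lower on 12 of 12 chromosomes, at 296 to 305 bp for the MC-TM3-only peaks and 346 to 366 bp for the shared peaks. Most peaks had 1 central summit: it lay within 50 bp of the centre in 87.2% of the MC-TM3-only peaks and in 80.8% of the shared peaks, a difference that is gone when the ends are left out (87.3% against 86.7%). MC-J-only and FUL2-J-only peaks were of a like width, with medians of 309 bp and 299 bp, whereas FUL2-TM3-only peaks had a median of 409 bp. FUL2-J2-only and MC-J2-only peaks were narrower than the MC-TM3-only peaks, with medians of 275 bp and 271 bp.

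**Figure D2:**
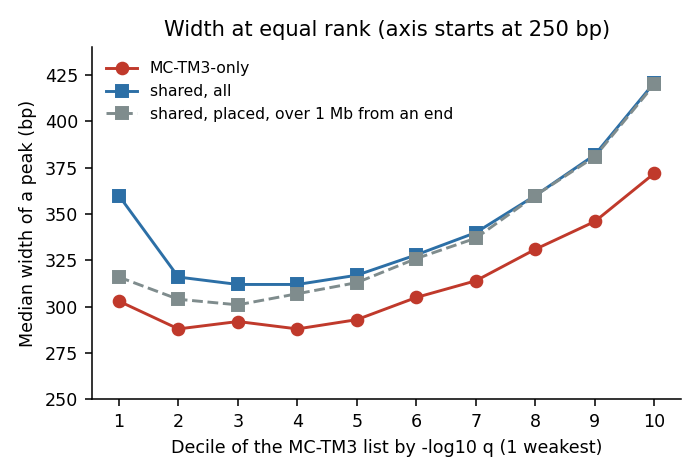
Median width in bp of MC-TM3-only peaks (red), of shared MC-TM3 peaks (blue) and of shared peaks over 1 Mb from an end (grey) in each decile of the list by −log10 q. The MC-TM3-only line is the lowest in all 10 deciles, between 288 and 372 bp; the vertical axis starts at 250 bp.

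The number of reads behind a peak was recovered from the fold and the p-value, which MACS2 computes from the pileup and the background at the summit. In the MC-TM3 list 1 treatment read is worth 0.773 input reads, the lowest background that peaks have in common equals 11.1 input reads, and 2910 of the 2952 MC-TM3-only peaks (98.6%) gave a single solution. A median of 68 reads covered the summits of the MC-TM3-only peaks, with a range of 41 to 519, against a median of 82 reads at the shared peaks. Where both stood on the common background, the median was 64 reads (quartiles 59 and 70) against 72 reads (63 and 83). The MC-TM3-only peaks thus had fewer reads at an equal background, with quartiles that overlap. As the reads were solved from the fold and the p-value, this restates their lower strength and is no further result. The reads come from amplified libraries and are not independent molecules.

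MC-TM3-only peaks more often stood on the common background. This was the case at 50.9% of them (49.1 to 52.7%), against 34.0% (33 to 35.1%) of the shared peaks. The background was raised, which means over 1.1 times the common one, at 37.4% of the MC-TM3-only peaks (35.7 to 39.2%), against 55.1% (54.0 to 56.1%) of the shared peaks. Part of this difference lay at the ends, where 92.1% of the shared peaks had a raised background. Away from the ends the values were 36.0% for the MC-TM3-only and 48.1% for the shared peaks. Read the other way, MC-TM3-only peaks made up 34.3% of the MC-TM3 peaks on the common background, 20.9% of those at 1.1 to 2 times and 10.8% of those at over 2 times this background. Without the ends and the unplaced sequence these shares were 34.4%, 23.0% and 21.4%. In the whole list, the 68 peaks at over 10 times the common background included 20 MC-TM3-only peaks (29.4%, 19.9 to 41.1%).

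**Figure D3:**
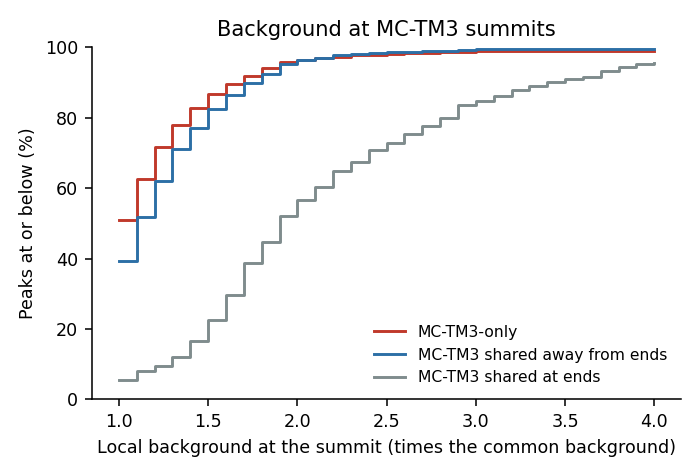
Cumulative share of peaks (%) by local background at the summit, in multiples of the common background of 11.1 input reads, for MC-TM3-only peaks (red), shared peaks away from the ends (blue) and shared peaks within 1 Mb of an end (grey). At the common background stand 50.9% of the MC-TM3-only peaks; the shared peaks at the ends lie far to the right.

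MC-TM3-only regions were spread over all 12 chromosomes at a nearly even density. The 2927 placed regions had 2.86 (chromosome 6) to 3.86 (chromosome 10) members per Mb, a ratio of 1.35, and counts of 149 on chromosome 6 to 339 on chromosome 1, the longest. Shared peaks ranged from 8.03 per Mb on chromosome 6 to 13.2 per Mb on chromosome 5, and with the ends left out from 7.43 to 9.90 per Mb. Chromosome 6 was thus the lowest for both sets. As a share of the MC-TM3 peaks, MC-TM3-only peaks were 21% (18.7 to 23.5%) on chromosome 5 and 29.2% (26.7 to 31.9%) on chromosome 1, and 26.7% to 30.1% on every chromosome once the ends were left out. The low share of chromosome 5 goes with its 271 shared peaks within 1 Mb of an end, the highest number of any chromosome.

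There were 188 MC-TM3-only regions on chromosome 2, 257 on chromosome 3, 232 on chromosome 4 and 236 on chromosome 5. Chromosomes 7, 8 and 9 held 242, 241 and 313, and chromosomes 10, 11 and 12 held 259, 208 and 263. Between chromosomes the strength of the regions also varied little, with a median percentile by −log10 q between 33.7 and 41.6. It was lower than that of the shared peaks on 12 of 12 chromosomes. By fold it was lower on 10 of 12, and the exceptions were chromosomes 5 (46.8 against 43.8) and 8 (47.0 against 44.0), which have the most shared peaks at their ends.

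**Figure D4:**
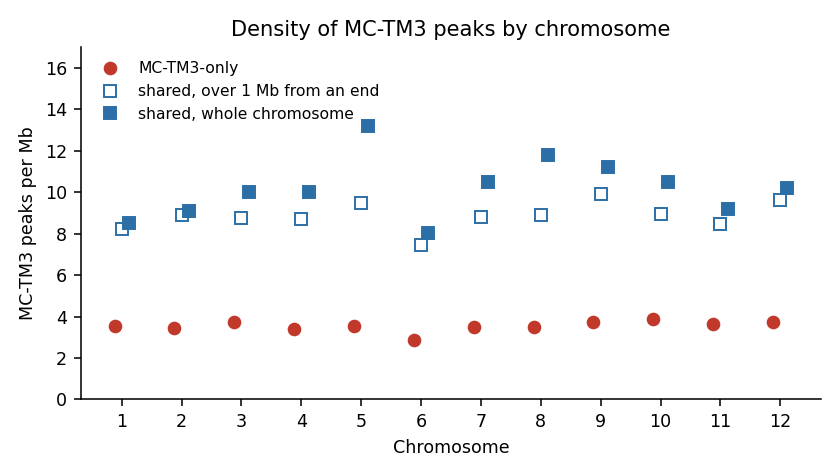
Density in peaks per Mb on each of the 12 chromosomes for MC-TM3-only peaks (red), for shared MC-TM3 peaks over 1 Mb from an end (open blue) and for shared peaks on the whole chromosome (filled blue). The MC-TM3-only density stays between 2.86 and 3.86 per Mb, while that of the shared peaks reaches 13.2 per Mb on chromosome 5.

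The ends of the chromosomes separated MC-TM3-only peaks from the rest of the list. Of the placed MC-TM3-only regions 98 (3.35%, 2.76 to 4.06%) lay within 1 Mb of an end, and these zones make up 2.91% of the length. Of the shared peaks 1319 (15.7%, 14.9 to 16.5%) lay there. In the end zones there were 4.08 MC-TM3-only and 55 shared peaks per Mb, so that only 6.92% of the MC-TM3 peaks there were MC-TM3-only, and 87.9% overlapped a FUL2-TM3 peak. For comparison, 76.2% of the FUL2-TM3-only regions, 1.81% of the MC-J-only and 1.04% of the FUL2-J-only regions lay in the end zones. Each of the 24 ends had at least 1 MC-TM3-only region, and the chromosomes had 4 to 14 at both ends together, with the most on chromosome 7.

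This result rests on what counts as an overlap and on the lengths of the lists. When at least 50% of both peaks had to overlap, 763 of 3704 placed MC-TM3-only peaks (20.6%) lay in the end zones, against 8.55% of the shared peaks. With summits within 100 bp of each other the shares were 18% and 9.69%. With the 4000 strongest peaks of each list they were 4.93% (3.68 to 6.58%, 43 peaks) and 3.73% (3.12 to 4.46%). In each of these 3 settings the share was higher for the MC-TM3-only than for the shared peaks, the opposite of the order with an overlap of 1 bp. In the last of the 3 the intervals overlap, so its order is not clear. With a −log10 q of at least 10 in all lists the order was kept, at 5.77% (4.98 to 6.67%) for the MC-TM3-only and 9.08% (8.43 to 9.78%) for the shared peaks. At the ends, 29.1% of the shared peaks were wider than 500 bp, and the median width was 402 bp, and 654 of the 1319 shared peaks overlapped another peak by at least 50% of both.

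Away from the end zones, the density of MC-TM3-only regions was lowest at 2 to 5 Mb from an end, at 2.50 per Mb, and highest over 20 Mb from an end, at 4.29 per Mb. The values between were 2.71 per Mb at 5 to 10 Mb and 3.26 per Mb at 10 to 20 Mb. The regions over 20 Mb from an end are 50.5% of the placed ones on 41.8% of the length. The shared peaks followed the same course, from 5.69 at 2 to 5 Mb up to 11.1 per Mb over 20 Mb from an end, and the share of MC-TM3-only peaks therefore stayed between 28.0% and 30.7% beyond 2 Mb. It was 25.6% at 1 to 2 Mb and 6.92% in the first Mb.

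**Figure D5:**
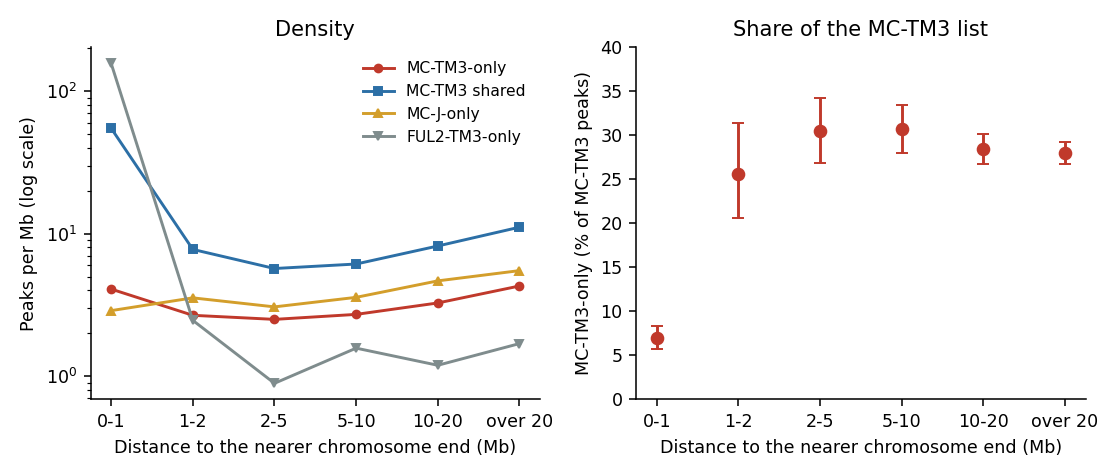
Left, peaks per Mb (log scale) by distance to the nearer chromosome end in Mb, for MC-TM3-only (red), shared MC-TM3 (blue), MC-J-only (yellow) and FUL2-TM3-only peaks (grey). Right, MC-TM3-only peaks as a share of the MC-TM3 peaks with 95% Wilson intervals, 6.92% in the first Mb and 25.6% to 30.7% further in.

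The 98 MC-TM3-only peaks in the end zones were weaker than those elsewhere, with a median percentile of 22.2 by −log10 q and 23.8 by fold, against 38.2 and 43.7 away from the ends. The shared peaks of the end zones were weaker still, with 17.3 and 9.57. The MC-TM3-only peaks there had a median background of 14.0 against 20.9 input reads, were raised at 64.2% against 92.1%, and had a median width of 302 bp against 402 bp for the shared ones. The strongest of them, on chromosome 7 between 68802568 and 68802929, had a −log10 q of 34.5 at a fold of 6.50 and stood on the common background, 0.473 Mb from the end.

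Most MC-TM3-only regions had no other one within 10 kb. The median gap between a placed region and the nearest other one was 81.5 kb (76.7 to 87.8 kb), which is 28.9% of their mean spacing of 282 kb. For the shared peaks it was 22.0 kb, or 22.5% of their mean spacing, and 29.1 kb, or 25.8%, when the ends were left out. For MC-J-only regions it was 60.3 kb, or 27.9%. Relative to their density the MC-TM3-only regions were therefore no closer to each other than these sets. Another MC-TM3-only region lay within 10 kb for 282 of them (9.63%), and within 1 kb for 34 (1.16%). For the shared peaks and their nearest shared peak the shares were 34.6% and 8%, and 24.8% and 2.89% away from the ends. The shared peaks are denser, at 10.2 against 3.55 per Mb. For MC-J-only regions the shares were 12.3% and 1.21%.

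When regions with gaps of at most 10 kb were joined into runs, 2668 stood alone, 130 runs held 2 and 8 runs held 3. The tightest of the longest runs lay on chromosome 12 between 23307325 and 23312267, with 3 regions in 4.94 kb and −log10 q values of 12.1 to 20.1. The second lay on chromosome 1 between 45812011 and 45817933, with 3 regions in 5.92 kb and −log10 q values of 11 to 22.2. The third lay on chromosome 8 between 15662468 and 15674174 and spanned 11.7 kb, with values of 10.6 to 17.4. The peaks of all 3 runs thus lay in the middle of the range of the MC-TM3-only regions. In 17 pairs the gap was 1 kb or less, and the summits of a pair were 341 to 1370 bp apart, with a median of 915 bp.

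Counted in 831 windows of 1 Mb, 702 windows (84.5%) held 1 to 6 MC-TM3-only regions and 48 held 0. The highest number was 12, among 33 MC-TM3 peaks, on chromosome 12 between 25 and 26 Mb. It was followed by 11 of 29 on chromosome 2 between 8 and 9 Mb, and by 10 of 22 in each of 2 windows of chromosome 8, between 18 and 19 Mb and between 25 and 26 Mb. A window of chromosome 5 between 45 and 46 Mb held 10 of 21. The windows with most MC-TM3 peaks of all were others: the first Mb of chromosome 5 held 215 peaks, of which 4 were MC-TM3-only. The variance of the counts was 1.40 times their mean for MC-TM3-only regions and 13.7 times for the shared peaks. In the 795 windows away from the ends it was 1.39 times for MC-TM3-only, 2.80 times for shared peaks and 1.65 times for MC-J-only regions.

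MC-TM3-only regions lay about as far from the peaks of other lists as most other single-list regions. The median gap from an MC-TM3-only region to the nearest peak of any other list was 12 kb (11.3 to 12.9 kb). For the other single-list regions it was 11.9 kb (FUL2-J and FUL2-J2), 12.9 kb (MC-J), 14.4 kb (MC-J2) and 4.67 kb (FUL2-TM3). No such peak lay within 50 kb of 324 MC-TM3-only regions (11%). Within 1 kb there was one for 210 regions (7.11%, 6.24 to 8.10%), and within 10 kb for 1315 (44.5%). For the single-list regions of the other complexes the share within 1 kb was 5.61% for MC-J, 4.43% for MC-J2, 17.3% for FUL2-TM3, 6.04% for FUL2-J and 3.65% for FUL2-J2. When at least 50% of both peaks had to overlap, 26.7% of the MC-TM3-only peaks had another list's peak within 1 kb, since peaks that overlap in part then count as near.

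The nearest peak was most often one of MC-J, for 1036 regions (35.1%), or of FUL2-J, for 915 (31.0%), lists that hold 26.0% and 25.2% of the peaks of the other lists. FUL2-TM3 was the nearest for 499 regions (16.9%), although its list holds 25.6% of these peaks, and many of its peaks lie at the chromosome ends. MC-J2 was the nearest for 289 and FUL2-J2 for 213 regions. Taken list by list, the median gap was 23.2 kb to MC-J, 24.2 kb to FUL2-J, 44.7 kb to FUL2-TM3, 50.5 kb to FUL2-J2 and 53.1 kb to MC-J2, and it was 32.0 kb to the nearest shared MC-TM3 peak.

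Few MC-TM3 peaks lay close to the limit of 1 bp of overlap. The member closest to another list lay on chromosome 9 between 8101755 and 8102060, 2 bp from a FUL2-J peak, with a −log10 q of 15.3 at a fold of 4.09. The next lay on chromosome 8 between 607572 and 607912, 5 bp from a FUL2-TM3 peak, and on chromosome 7 between 68964221 and 68964677, 19 bp from a FUL2-TM3 peak. On the other side of the rule, an MC-TM3 peak on chromosome 5 between 57524113 and 57524413 was shared by an overlap of 1 bp with MC-J, one on chromosome 10 between 66026604 and 66027377 by 2 bp with MC-J, and one on chromosome 12 between 279538 and 279858 by 15 bp with FUL2-TM3. In all, 5 members lay within 50 bp of another list's peak and 5 shared peaks overlapped by under 50 bp, while the median overlap of a shared peak was 322 bp. Stricter rules of position changed more calls. The MC-TM3-only peaks numbered 3743 when 50% of both peaks had to overlap, and 3862 with summits within 100 bp.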

How the data were processed

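DAP-seq reads of 18 pull-down libraries and 3 inputs were trimmed by the authors with Trim Galore, mapped to the Moneyberg genome with HISAT2, merged per complex and used for peak calling with MACS2 at a threshold of 0.0001. Versions are not given in the sources used here. The deposited lists give, per peak, a position, a score (10 times the −log10 q in 52971 of 52995 peaks, not used), a fold enrichment (ratio to the local background), a −log10 p-value, a −log10 q-value and the summit offset. No counts and no per-replicate values are given, so peaks are not replicates and no p-value is given.

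Peaks were joined and described in pandas 2.3.3 (Python 3.11.15, scipy 1.17.1, numpy 2.4.6), and figures were made in matplotlib 3.10.9. The last peak position on a chromosome stood for its length. Reads and background were solved from MACS2's formulas (pseudocount 1, backgrounds of at least 5, whole reads within 0.02), and 100% of 2165 held-out peaks on the common background gave whole reads. The treatment was 1.29 times as deep as the input. Scripts were tested on simulated data. Regions named singly are the 10 with the highest −log10 q, the 3 with the highest fold, the 3 with the lowest −log10 q, the 3 tightest runs, the 5 fullest windows, the 3 nearest to another list, the 3 smallest overlaps and the widest. The narrowest is 1 of 193 with the same width and is not named. The members, lists and alternatives were chosen with earlier results of these data known.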

Additional observations from a re-analysis of the deposited data

How the results depend on the processing

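Of 41 recomputed values, 21 stayed within the interval of the reported value (for counts, within 1.5 times) and 20 moved. The number of MC-TM3-only regions was 883 with the 4000 strongest peaks of each list, and 3153 (without MC-J2) to 4796 (without FUL2-TM3) with 1 other list left out. Other overlap rules and thresholds gave 2506 to 3862. The median percentile by −log10 q of 37.1 was 32.6 with an overlap of 50% of both peaks, 33.7 with summits within 100 bp, 32.8 with a −log10 q of at least 10 and 33.3 without the ends. In the last 2 of these the percentiles were recomputed in the shorter list, whereas the value of 38.2 away from the ends keeps the ranks of the whole list. The share at the ends of 3.35% was 20.6%, 18% and 5.77% under the first 3 of these, 4.93% with the 4000 strongest peaks, and 5.53% and 11.7% with end zones of 2 and 5 Mb. With an overlap of 50%, the median gap was 52.5 kb and the share near another list was 26.7%. This share was 6.03% without the ends and 44.5% within 10 kb. A background over 1.5 times the common one was found at 13.2%. The higher values under stricter overlaps follow from peaks that overlap in part. No paired analysis was possible because there is 1 merged list per complex and no value per replicate. At the common background the MC-TM3-only peaks rest on a median of 64 reads. The depth of single libraries was not used here, and how the calls depend on depth was not tested.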

Other observations

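On sequence not placed on a chromosome there were 25 MC-TM3-only peaks among 108 MC-TM3 peaks (23.1%, 16.2 to 31.9%). Most of them combined a middle rank by −log10 q with a low fold. The 83 shared peaks there also had low folds but were spread more widely by −log10 q. Of the shared peaks 32.5% lay in the strongest and 28.9% in the weakest 25% of the list, against 4% and 16% of the MC-TM3-only peaks. The median percentile by −log10 q was 59.3 for the MC-TM3-only and 56.3 for the shared peaks, and that by fold was 0.306 and 1.93. The median fold was 1.79 for the MC-TM3-only and 2.21 for the shared peaks. By fold, 22 of the 25 lay in the weakest 25% of the list, and the highest stood at percentile 54.3. The median summit had 436 reads over a background of 192 input reads, against 305 reads over 127 at the shared peaks, and the background was raised at 91.7% of the MC-TM3-only and 97.5% of the shared peaks. The strongest of them had a −log10 q of 24.7 at a fold of 1.98. Of the 20 MC-TM3-only peaks on a background over 10 times the common one, among 68 such MC-TM3 peaks, 18 were on unplaced sequence and 2 on 1 chromosome, with folds of 1.5 to 2.02 and −log10 q values of 9.64 to 24.7. Leaving out the unplaced sequence left the median percentile by −log10 q of all MC-TM3-only peaks at 37.1.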
